A study of Mus musculus with 6 samples.

Results

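The costimulatory and coinhibitory receptors examined here are 10 genes chosen by symbol: the CD28 family members Cd28, Icos, Ctla4, Pdcd1 and Btla, and the further checkpoint receptors Lag3, Havcr2, Tigit, Cd96 and Cd226. All 10 were found among the 24424 genes of the deposited count table and among the 23393 genes of the deposited normalized table, and all 10 passed the filters on low values in both. They were measured by RNA sequencing in regulatory T cells of the mouse, which express the factor Foxp3 and keep other T cells in check, sorted from spleen and peripheral lymph nodes.

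There were 3 groups of 2 libraries. The KO EAE and KO groups carry the same strain label, Bcl11bF/WT Foxp3YFP-Cre +/-, in which the Foxp3 promoter drives the Cre recombinase, and EAE usually stands for experimental autoimmune encephalomyelitis, an induced disease that models multiple sclerosis. As written, that strain label holds a single floxed allele of Bcl11b beside a wild-type one, although its genotype label is KO, and no source used here settles which applies. The WT group is labelled Bcl11bF/F, with no Cre named. All 3 groups share the floxed allele and the tissue label of secondary lymphoid organs, no label gives an age, a treatment day or the sorting gate, and there was no WT group with EAE, so the effect of genotype within EAE cannot be tested. The labels do not say whether replicates came from separate animals, so p-values reflect no more than the scatter of these libraries, and that scatter may be technical. The count table holds all 3 groups, and the normalized table holds only KO and WT.

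T cell activation needs a signal from the antigen receptor and a second one from CD28, which binds CD80 and CD86 on antigen-presenting cells. CTLA-4 binds the same ligands more tightly than CD28 does and, on regulatory T cells, strips them from the presenting cell, which makes it a main effector molecule of these cells. PD-1, BTLA, LAG-3, TIM-3 and TIGIT dampen T cell responses through ligands of their own, ICOS supports effector regulatory T cells, and CD226 competes with TIGIT and CD96 for the ligand CD155.

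Libraries held 14663542 to 16904312 reads in the count table, and levels are given as TMM-scaled counts-per-million (CPM). A floor of 3 reads per library, which covers counting error only, equals 0.177 to 0.205 CPM. Bcl11b itself, the targeted gene, had 404 and 278 CPM in KO EAE, 372 and 370 CPM in KO and 420 and 425 CPM in WT, a log2 change of -0.19 in KO against WT (edgeR adjusted p = 0.527). All 4 KO EAE and KO libraries lay below both WT libraries, but the difference did not pass the test, and the deleted part of the gene is not given in the sources used here, so reads outside it count as well. In the normalized table both KO libraries were again below both WT libraries, at a log2 change of -0.88 (limma adjusted p = 0.065, and 0.0388 on log2(value + 10)). The authors' deposited table lists Bcl11b as lower in KO, at a log2 fold change of -0.80 (DESeq2 adjusted p = 7.9e-08). The mean level of Bcl11b in it, 8461.5, is that of the normalized columns, so it is not a further measurement. Markers of other cells moved with the genotype label. The summed level of 14 myeloid markers was 1427 to 1728 CPM in KO EAE and 1725 to 2060 CPM in KO, against 212 to 239 CPM in WT, and 12 of the 13 tested were called higher in KO. That of 10 NK cell markers was 228 to 383 CPM in KO EAE and 284 to 296 CPM in KO, against 91.9 to 102 CPM in WT, with Klra8 at 0 in every library and 6 of 9 tested called higher. The 9 T cell markers summed to 1529 to 1572 CPM in KO EAE, 1455 to 1574 CPM in KO and 1542 to 1562 CPM in WT with none of 9 called, while the 14 regulatory T cell markers summed to 1915 to 2000 CPM in KO EAE, 1883 to 1907 CPM in KO and 3047 to 3139 CPM in WT with 11 called lower. In such bulk samples fewer cells of a type and less RNA per cell cannot be told apart.

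In KO against WT, Ctla4 fell and Pdcd1 and Havcr2 rose, which is 2 of the 10 receptors higher, where 9.41% of all tested genes were called higher, and 1 lower, where 3.46% were. The share of receptors called in either direction was 30%, against 12.9% of the 14548 genes tested. A gene was called where its adjusted p, from edgeR's quasi-likelihood test with Benjamini-Hochberg adjustment over all genes tested, was under 0.05. The median log2 change of the receptors was -0.07, against -0.01 for all genes tested. Of the 10, 4 had both KO libraries above both WT libraries and 4 had both below, in a table where 32.7% and 32.5% of genes did so.

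Ctla4 (ENSMUSG00000026011.13, chromosome 1, 60887000 to 60915832 on the plus strand of mm10) encodes the CD80 and CD86 receptor that regulatory T cells use to remove those ligands. It had 189.8 and 154 CPM in KO EAE, 137 and 155 CPM in KO, and 230.5 and 241 CPM in WT. Both WT libraries stood above all 4 others, and the KO EAE and KO groups overlapped. The log2 change in KO against WT was -0.69 ± 0.12 (SE; fold 0.618, edgeR adjusted p = 0.0147). The call ended when any 1 of the 4 libraries was left out, with log2 changes of -0.78 to -0.60 and adjusted p from 0.0628 to 0.13. The regulatory T cell markers were lower in the same libraries, and their part in the Ctla4 level was not tested. Reads of Ctla4 per read of Foxp3 were 1.16 and 1.03 in KO EAE, 0.832 and 0.996 in KO, and 1.09 and 1.17 in WT, so that KO lay below WT and KO EAE overlapped with it. Foxp3 is not a fixed reference, with 165 and 155 CPM in KO and 211 and 206 CPM in WT. It was called lower in KO (log2 change -0.38, edgeR adjusted p = 0.0254), a call that ended in 6 of 11 alternatives. These were libraries scaled to the Cd3 genes, no filter on low counts, and each of the 4 fits without a KO or WT library (log2 changes of -0.42 to -0.34). In the normalized table Foxp3 was not called (-0.07, limma adjusted p = 0.855). The ratio there was 1.19 and 1.74 in KO and 2.58 and 1.77 in WT.

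Cd28, the costimulatory receptor for the same ligands, had 323 and 277 CPM in KO EAE, 255 and 294 CPM in KO, and 296 and 324 CPM in WT. Its log2 change in KO against WT was -0.18 ± 0.12 (edgeR adjusted p = 0.388), and the KO and WT groups were the only pair that did not overlap, with 294 CPM in the nearer KO library and 296 CPM in the nearer WT library. Reads of Ctla4 per read of Cd28, a ratio that does not depend on library scaling, were 0.587 and 0.555 in KO EAE, 0.537 and 0.526 in KO, and 0.778 and 0.744 in WT. The ratio was thus lower in all 4 KO EAE and KO libraries than in either WT library. Icos, the receptor for ICOS ligand, had 224 and 237 CPM in KO EAE, 185 and 207 CPM in KO, and 193 and 215 CPM in WT, with KO and WT overlapping (log2 change -0.06 ± 0.09).

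Pdcd1 (ENSMUSG00000026285.7, chromosome 1, 94038305 to 94052553 on the minus strand) encodes PD-1, the inhibitory receptor for PD-L1 and PD-L2. It had 74.5 and 79.4 CPM in KO EAE, 89.4 and 78.3 CPM in KO, and 57.4 and 43 CPM in WT. The WT libraries were the lowest of the 6, and the KO EAE and KO groups overlapped. The log2 change in KO against WT was 0.74 ± 0.15 (SE; fold 1.67, edgeR adjusted p = 0.0253). The call remained without WT replicate 1 (log2 change 0.98, adjusted p = 0.019) and ended without WT replicate 2 (0.54, 0.0977), KO replicate 1 (0.64, 0.172) or KO replicate 2 (0.83, 0.088).

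Btla, whose product binds the TNF receptor family member HVEM, had 124 and 104 CPM in KO EAE, 137 and 129 CPM in KO, and 118 and 121 CPM in WT. Both KO libraries lay above both WT libraries, with a log2 change of 0.16 ± 0.10 (edgeR adjusted p = 0.355). Lag3, a CD4-related receptor that binds MHC class II, had 94.6 and 108 CPM in KO EAE, 103 and 79 CPM in KO, and 69.2 and 46.6 CPM in WT. The WT libraries were the lowest of the 6, and the log2 change in KO against WT was 0.66 ± 0.21 (edgeR adjusted p = 0.105). DESeq2, which called 16.8% of genes, put Lag3 past the threshold (log2 change 0.67, adjusted p = 0.0274).

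Havcr2 (ENSMUSG00000020399.14, chromosome 11, 46454935 to 46481255 on the plus strand) encodes TIM-3, an inhibitory receptor of effector T cells that macrophages, dendritic cells and NK cells also express. It had 8.74 and 20.1 CPM in KO EAE, 12.6 and 15.5 CPM in KO, and 3.19 and 3.80 CPM in WT, the last from 51 and 62 reads. WT did not overlap with either other group, and the KO EAE libraries enclosed both KO libraries. The log2 change in KO against WT was 2.0 ± 0.42 (SE; fold 4.01, edgeR adjusted p = 0.0303), which ended as a call when any 1 of the 4 libraries was left out (log2 changes of 1.85 to 2.15, adjusted p from 0.115 to 0.171). KO EAE replicate 2 also had the higher sum of NK cell markers, 383 CPM against 228 CPM in KO EAE replicate 1, and of myeloid markers, 1728 CPM against 1427 CPM. Most of the gap in the NK sum lay in Klrk1 (101.6 CPM against 42.2 CPM) and Gzma (70.6 CPM against 10.15 CPM). Klrb1c (33.35 CPM against 33.9 CPM) and Tyrobp (44.7 CPM against 43.5 CPM) were nearly level, and the other NK markers above 0 were higher in replicate 2 by less. Across the 3 groups Havcr2 was high where the myeloid and NK sums were high, and the part of those cells in its level was not tested.

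Tigit, Cd96 and Cd226 encode receptors that share CD155. Tigit, the inhibitory receptor that binds it most tightly, had 59.9 and 77 CPM in KO EAE, 52.8 and 51.5 CPM in KO, and 63.9 and 63.4 CPM in WT. Its 2 KO libraries were the lowest of the 6, with a log2 change of -0.29 ± 0.12 in KO against WT (edgeR adjusted p = 0.195), and a fit of the KO and WT libraries alone, which called 22% of genes, put it past the threshold (adjusted p = 0.0379). Cd96 had 152 and 148 CPM in KO EAE, 136 and 156 CPM in KO, and 172 and 165 CPM in WT, so that both WT libraries were the highest, with a log2 change of -0.21 ± 0.09 (adjusted p = 0.181). Cd226, the costimulatory member of the trio, had 96.9 and 88.8 CPM in KO EAE, 91.7 and 103 CPM in KO, and 98.7 and 107 CPM in WT, with KO and WT overlapping (log2 change -0.08 ± 0.09).

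**Figure D1:**
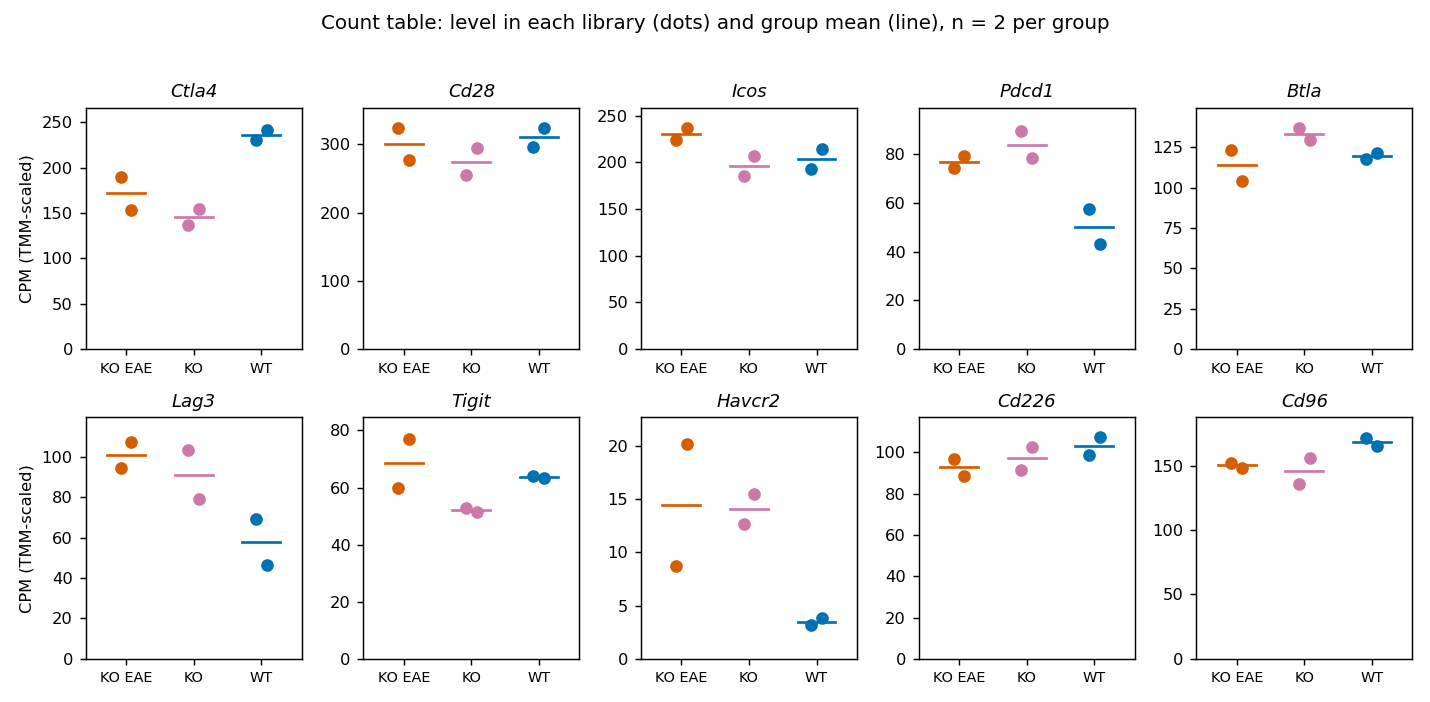
Level of each receptor gene in the count table, in TMM-scaled CPM on axes that start at 0. Dots are single libraries and lines are group means (n = 2 per group). For Ctla4 the 2 WT dots lie above the other 4, and for Pdcd1, Lag3 and Havcr2 they lie below them.

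Set against each other per length, as CPM per kilobase of annotated exon, the receptors covered a wide range of levels in WT. Ctla4 was highest at 101 CPM per kb, followed by Cd96 at 77.1, Tigit at 69.2, Icos at 59.5, Cd28 at 50.6 and Btla at 35.2 CPM per kb. Lag3 at 27.5 and Pdcd1 at 26.0 CPM per kb overlapped between the WT libraries, Cd226 had 21.1 CPM per kb, and Havcr2 was lowest at 1.28 CPM per kb. No other neighbours in this order overlapped in WT. In the order by means of the KO libraries Cd96 came first at 66.8 CPM per kb, with Ctla4 at 62.6 CPM per kb, and the KO libraries of these genes overlapped. In the KO EAE libraries Tigit came first at 74.5 CPM per kb, with Ctla4 at 73.7 CPM per kb, a gap within the spread of the KO EAE libraries of either gene. The summed level of the 10 is given in CPM of library totals only, without TMM scaling. It was 1336 and 1296 CPM in KO EAE, 1250 and 1267 CPM in KO, and 1260 and 1316 CPM in WT. On this scale WT overlapped with each other group, and both KO EAE libraries lay above both KO libraries. The TMM factors were 1.04 and 1.001 in KO, and 0.969 and 0.991 in WT. With TMM scaling both WT libraries lay above both KO libraries, so the overlap of WT with KO depended on the scaling.

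The 300-base windows around the RefSeq start sites of the 3 called receptors are shown because these genes moved in opposite directions in the count table. They run from 250 bases before the start to 50 after it, from RefSeq on GRCm38.p6 (mm10), 5′ to 3′ on the gene's strand. Capitals mark matches, on either strand, to 6 short motifs of factors active in T cells: GGAAA (the NFAT core), TGANTCA (AP-1), TGTGGT (Runx), AGGTGT (T-box), AAAGGTCA (Nr4a) and TGTTTAC (forkhead). The windows are chr1:60908775-60909074 (plus strand) for Ctla4, chr1:94052504-94052803 (minus strand) for Pdcd1 and chr11:46454681-46454980 (plus strand) for Havcr2.
Ctla4: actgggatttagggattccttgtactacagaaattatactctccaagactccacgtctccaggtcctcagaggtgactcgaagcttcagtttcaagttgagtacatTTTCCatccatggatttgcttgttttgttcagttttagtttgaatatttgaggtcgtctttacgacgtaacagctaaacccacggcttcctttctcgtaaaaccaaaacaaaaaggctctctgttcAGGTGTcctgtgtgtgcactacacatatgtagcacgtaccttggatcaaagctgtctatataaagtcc
Pdcd1: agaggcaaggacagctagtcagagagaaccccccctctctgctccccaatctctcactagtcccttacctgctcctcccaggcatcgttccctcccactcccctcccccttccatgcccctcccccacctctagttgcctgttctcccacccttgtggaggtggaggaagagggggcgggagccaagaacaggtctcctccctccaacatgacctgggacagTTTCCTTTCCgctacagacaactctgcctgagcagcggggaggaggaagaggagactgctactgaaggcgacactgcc
Havcr2: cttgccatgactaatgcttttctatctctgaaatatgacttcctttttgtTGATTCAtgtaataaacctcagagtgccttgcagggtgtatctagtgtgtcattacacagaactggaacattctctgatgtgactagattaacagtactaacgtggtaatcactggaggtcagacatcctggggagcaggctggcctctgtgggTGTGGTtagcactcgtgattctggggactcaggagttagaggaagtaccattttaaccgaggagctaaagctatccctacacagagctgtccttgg
The Ctla4 window held 1 match to the NFAT core, 144 bases before the start, and 1 T-box match, 18 bases before it. The Pdcd1 window held 2 adjacent NFAT core matches 28 and 23 bases before the start, and the Havcr2 window held 1 AP-1 match 200 bases before the start and 1 Runx match 46 bases before it. Among 32851 promoter windows of the same length, 61.3% held the NFAT core, 7.81% AP-1, 16.8% Runx, 13.7% T-box, 1.51% Nr4a and 3.65% forkhead, so a match is a description of letters only. Of the other receptors, Btla, Tigit and Cd96 were also searched, and Runx matches occurred in all 3 and NFAT core matches in Tigit and Cd96.

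For KO EAE against KO, the comparison of disease with steady state in cells of the same strain label, no receptor was called by edgeR (0 of 10, where 0.0137% of genes were called) or by DESeq2 (0 of 10, where 1.24% were). At an unadjusted edgeR p under 0.05 there were 2, Icos and Tigit. Icos stood higher in both KO EAE libraries than in both KO libraries, at a log2 change of 0.23 ± 0.09 (edgeR adjusted p = 0.525), and Tigit likewise at 0.39 ± 0.12 (adjusted p = 0.497). Btla stood lower in both, at -0.23 ± 0.10 (adjusted p = 0.535). The other 7 overlapped between the groups, whereas 17% of all genes stood higher and 21.3% lower without overlap. Without KO EAE replicate 1 the log2 change of Tigit was 0.57 and passed the threshold (adjusted p = 0.0421), the lone KO EAE library being assumed to vary like the other groups. The log2 changes of Ctla4, Pdcd1, Lag3 and Havcr2 were 0.24 ± 0.12, -0.12 ± 0.15, 0.15 ± 0.21 and 0.04 ± 0.40, and the last was -0.68 without KO EAE replicate 2 and 0.53 without KO EAE replicate 1.

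In KO EAE against WT, which mixes genotype label and disease and shares the WT libraries with the comparison above, Havcr2 rose and no other receptor was called (1 of 10 higher, where 7.41% of genes were, and 0 lower, where 1.95% were, or 9.36% in either direction). Its log2 change was 2.04 ± 0.43 (SE; fold 4.12, edgeR adjusted p = 0.0358), and without KO EAE replicate 2, the library with the highest Havcr2 level, it was 1.32 (adjusted p = 0.039). The call ended without WT replicate 1 (adjusted p = 0.197), without WT replicate 2 (0.14) and in a fit of these 2 groups alone (0.106), which called 5.54% of genes. Pdcd1 followed at 0.62 ± 0.15 (adjusted p = 0.0584), Lag3 at 0.80 ± 0.21 (adjusted p = 0.075) and Ctla4 at -0.46 ± 0.12 (adjusted p = 0.0719). DESeq2, which called 15.9% of genes, called all 4, with adjusted p of 4.6e-05 for Havcr2, 0.00631 for Lag3, 0.00972 for Pdcd1 and 0.016 for Ctla4. Groups did not overlap for 4 receptors that were higher and 3 that were lower, in a table where 29.9% and 30.7% of genes behaved so.

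**Figure D2:**
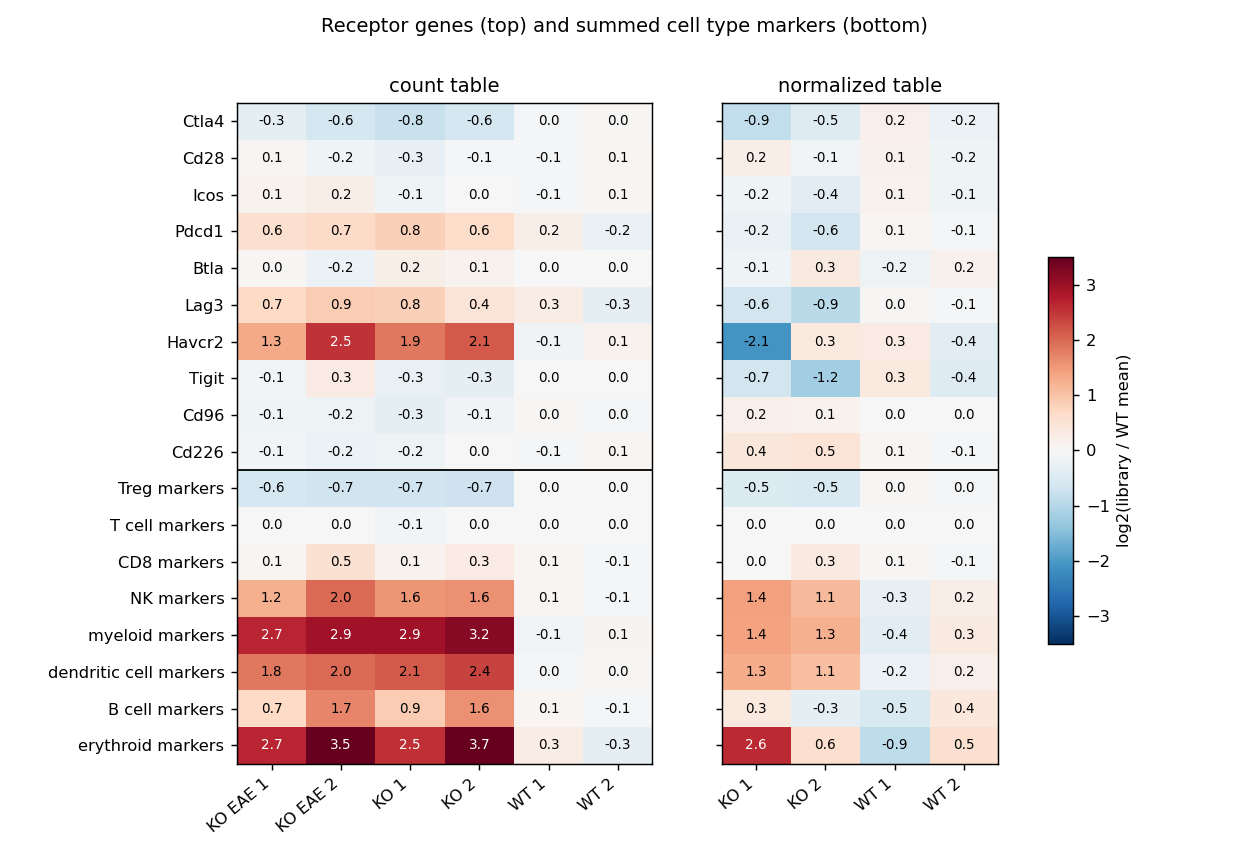
Log2 ratio of each library to the WT mean, for the 10 receptor genes (upper rows) and the summed markers of each cell type (lower rows), in the count table (left) and the normalized table (right). In the count table the Havcr2 row runs from 1.3 to 2.5 in the KO EAE and KO libraries, beside myeloid rows of 2.7 to 3.2, and in the normalized table it holds -2.1 and 0.3 in the KO libraries.

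The normalized table, whose KO and WT columns carry the same genotype and replicate number as those of the count table but hold other values, gave a different picture for several receptors. Which libraries it was made from is not given in the sources used here, so columns of the same number in the tables cannot be taken as the same library. None of the 10 was called by limma on log2(value + 1) (0.181% of 12149 genes were, 0.14% higher and 0.0412% lower), and none by edgeR on the whole reads recovered from it, while 5 had an unadjusted limma p under 0.05: Ctla4, Pdcd1, Lag3, Tigit and Cd226. The median log2 change of the receptors was -0.35, against 0.00 for all genes. Groups did not overlap for 2 receptors with higher values in KO and 5 with lower values, where 23.3% and 22.4% of all genes stood so.

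Ctla4 had the same direction in both tables. Its normalized read counts were 2739 and 3594 in KO and 5619 and 4291 in WT, and the log2 change was -0.65 ± 0.18 (limma adjusted p = 0.223). Its reads per read of Cd28 were 0.255 and 0.421 in KO and 0.556 and 0.518 in WT, again without overlap. In the authors' deposited table of this comparison, Ctla4 was the receptor past a DESeq2 adjusted p of 0.05 (log2 fold change -0.56, adjusted p = 0.0116). Of 10396 genes with an adjusted p, 349, or 3.36%, were past it. The mean level it lists for Ctla4, 4060.6, is that of the normalized read counts above, so it describes the same libraries.

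The log2 changes of Pdcd1, Lag3 and Havcr2 had the opposite sign to those in the count table, and none passed the test. Pdcd1 had 3597 and 2689 normalized reads in KO and 4406 and 4000 in WT, a log2 change of -0.43 ± 0.16 (limma adjusted p = 0.328), and the authors' deposited table gives -0.37 (adjusted p = 0.168). Lag3 had 209 and 170 normalized reads in KO and 336 and 314 in WT, a log2 change of -0.78 ± 0.31 (limma adjusted p = 0.354), and the authors' deposited table gives -0.41 (adjusted p = 0.415). Neither gene overlapped between the groups in either table, and the signs of the differences were opposite. Havcr2 had 14.1 and 74.7 normalized reads in KO and 72.6 and 46.3 in WT, from 17 and 87 reads in KO and 57 and 43 in WT, so the KO libraries enclosed both WT libraries. Its log2 change of -0.81 ± 0.91 (limma adjusted p = 0.74) was 0.36 without KO replicate 1.

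Among the CD155 receptors of the normalized table, Tigit had 442 and 301 normalized reads in KO and 881 and 509.6 in WT, lower in KO without overlap as in the count table (log2 change -0.88 ± 0.33, limma adjusted p = 0.333). Cd226 had 1748 and 1837 in KO and 1382 and 1257 in WT, higher in KO without overlap (0.44 ± 0.15, limma adjusted p = 0.291). Reads of Tigit per read of Cd226 were 0.253 and 0.164 in KO and 0.637 and 0.405 in WT in this table, and 0.576 and 0.501 in KO and 0.647 and 0.59 in WT in the count table, lower in both KO libraries each time. Cd96 had 9214 and 8886 in KO and 8185 and 8126 in WT (0.15 ± 0.10), Icos had 4713 and 4024 in KO and 5765 and 4770 in WT (-0.27 ± 0.14), and Cd28 and Btla overlapped.

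Myeloid markers were higher in KO in the normalized table too, at summed values of 20580 to 22850 in KO against 6555 to 10710 in WT, with 2 of 13 tested called. NK cell markers summed to 2846 to 3496 in KO and 1059 to 1524 in WT, with 1 of 8 called. At most 1 myeloid marker was at 0 in a library. Both marker sums were higher in the KO libraries of each table, and the part of those cells in the receptor levels was not tested. Per kilobase the WT order of receptors also differed between the tables, with Cd96 highest, followed by Pdcd1 and then Ctla4, in the normalized table, where Lag3 stood above Havcr2 alone. CPM and normalized read counts were not compared across the tables, which were scaled separately. Ratios within a library do not depend on scaling, and they differed too. Per 100 reads of Cd3d, Cd3e and Cd3g, the WT libraries had 18.2 and 12.4 Lag3 reads in the count table. In the normalized table they had 0.642 and 0.651. Ctla4 had 60.6 and 64.3 reads against 10.7 and 8.91. Reads of the Cd3 genes in WT were 6080 and 6125 against 41100 and 44710. The reason was not tested.

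**Figure D3:**
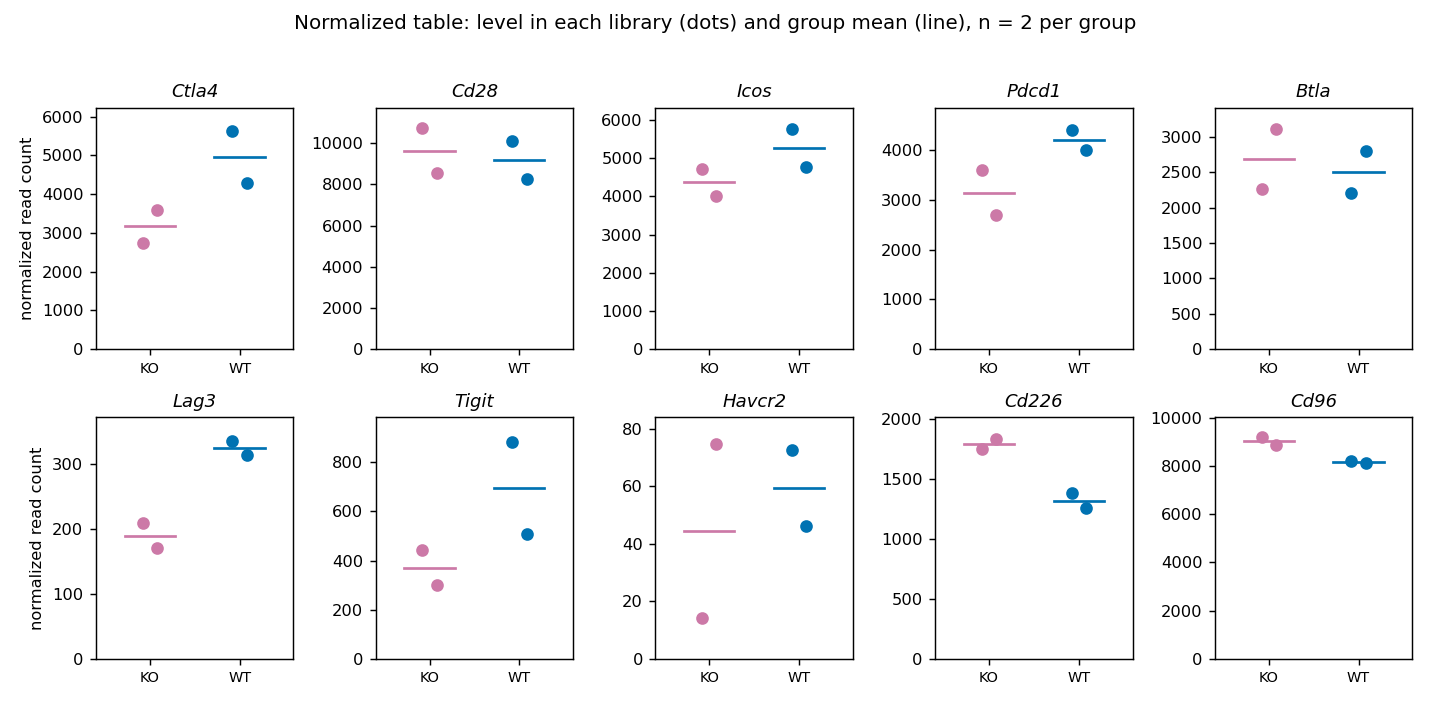
Normalized read count of each receptor gene in the normalized table, on axes that start at 0. Dots are single libraries and lines are group means (n = 2 per group). Ctla4, Icos, Pdcd1, Lag3 and Tigit have both KO dots below both WT dots, and Cd226 and Cd96 have both above.

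**Figure D4:**
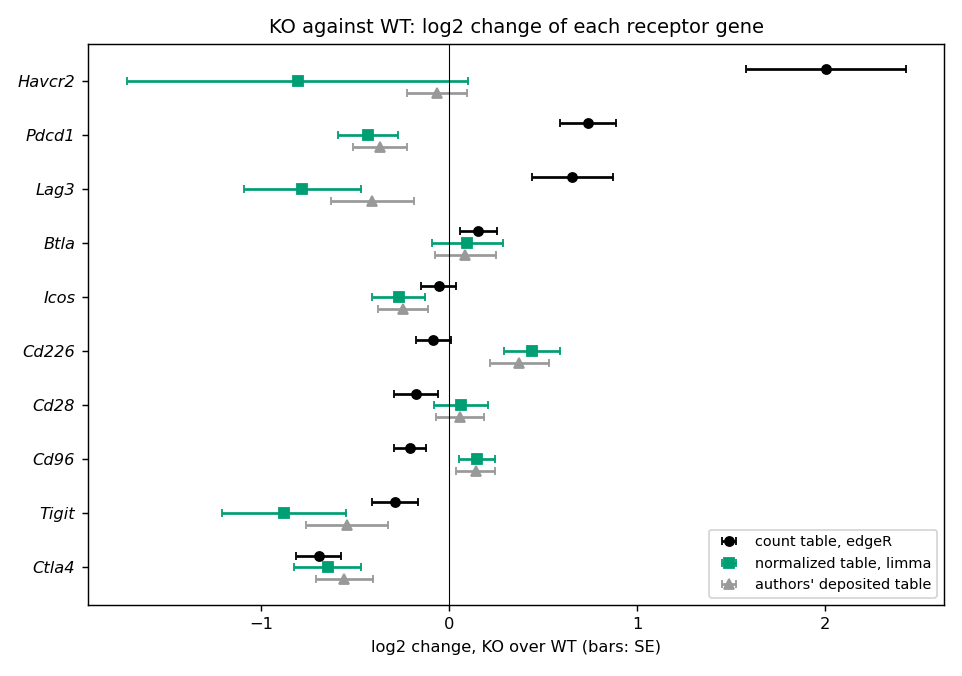
Log2 change in KO over WT of each receptor gene with its SE (bars), from the count table by edgeR, the normalized table by limma, and the authors' deposited table. The normalized table and the authors' table describe the same libraries. Ctla4 lies between -0.69 and -0.56 throughout, while Pdcd1 lies at 0.74 in the count table and at -0.43 and -0.37 in those tables. The authors' change lies nearer 0 for Havcr2, at -0.06 against -0.81 by limma.

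The ligands of these receptors, which antigen-presenting cells display, included 3 called genes in the count table. Of 15 listed ligand genes 14 were tested, 3 were called higher in KO than in WT and none lower, where 9.41% and 3.46% of all genes were, with a median log2 change of 0.34. Lgals3, which encodes a galectin that binds LAG-3, had 59.3 and 59.4 CPM in KO and 14.7 and 19 CPM in WT (log2 change 1.82 ± 0.26, edgeR adjusted p = 0.00774). Cd86, the ligand of CTLA-4 and CD28, had 102 and 127 CPM in KO and 59.8 and 47.8 CPM in WT (1.09 ± 0.18, adjusted p = 0.0114). Icosl, the ICOS ligand, had 61.9 and 52.3 CPM in KO and 37.8 and 40.1 CPM in WT (0.55 ± 0.12, adjusted p = 0.0347). Macrophages, dendritic cells and B cells are known to express Cd86 and Icosl. Beside the myeloid sum above, 9 dendritic cell markers summed to 368 to 428 CPM in KO and 80.3 to 85.9 CPM in WT, with 4 called higher. Sirpa alone, 1 of the called markers, made up most of the KO sums, at 274.6 and 323.6 CPM in KO and 22.8 and 23.7 CPM in WT. Ccr9, the largest part of the WT sums at 52.7 and 55.2 CPM, overlapped with KO, at 67 and 50.6 CPM. The 10 B cell markers summed to 87.1 to 140.5 CPM in KO and 44.6 to 48.7 CPM in WT. Only Cd22 among them was called higher (50.1 and 63.6 CPM in KO, 13.1 and 14.3 CPM in WT), and Cd79a and Cd79b overlapped between the groups. In the normalized table the B cell sums overlapped, at 815 to 1314 in KO and 720.5 to 1347 in WT. Icosl there had 1398 and 1316 normalized reads in KO and 608.5 and 869 in WT (limma adjusted p = 0.168). The part of such cells in the ligand levels was not tested. The call on Icosl ended when any 1 of the 4 libraries was left out (adjusted p from 0.0667 to 0.206) and with libraries scaled to the Cd3 genes (0.0546), that on Lgals3 held in 1 of the 4 such fits, and that on Cd86 in 2. Set against WT, the KO EAE libraries also had 3 ligands called higher, led by Lgals3 at 1.96 ± 0.27 and Cd86 at 0.83 ± 0.18, which held in 3 and in 1 of the 4 fits without a library. The call on Cd86 there also ended in the fit of those 2 groups alone (edgeR adjusted p = 0.079).

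Of 16 further costimulatory or inhibitory receptors, 14 were tested and 3 were called higher in KO than in WT, where 9.41% of all genes were, with a list median of 0.06. Cd244a, a receptor of the SLAM family on NK and CD8 T cells, had 27.5 and 35.4 CPM in KO and 2.69 and 2.2 CPM in WT (log2 change 3.68 ± 0.40, edgeR adjusted p = 0.00242). Lair1, an inhibitory collagen receptor of many leukocytes, had 79.7 and 101 CPM in KO and 11 and 13.2 CPM in WT (2.89 ± 0.19, adjusted p = 0.000281). Both calls held in all 4 fits that leave out a KO or WT library. Cd160, a receptor that shares HVEM with BTLA and is found on NK and CD8 T cells, had 53.2 and 44.6 CPM in KO and 23.6 and 22.2 CPM in WT (1.10 ± 0.16, adjusted p = 0.00758), a call that held in 1 of those fits. It was called in the normalized table as well, at 2242 and 2402 normalized reads in KO and 420.1 and 616 in WT (2.19 ± 0.21, limma adjusted p = 0.0342). That call held in 6 of 10 alternatives. NK cell markers were higher in the same KO libraries of both tables. The 3 CD8 T cell markers summed to 34.1 to 38.6 CPM in KO and 30.2 to 32.8 CPM in WT. Of these, Crtam was called higher (14.3 and 13.9 CPM in KO, 5.5 and 4.72 CPM in WT) and Cd8a was not called. Cd8b1 was lower in KO without overlap and not called (17.9 and 21.15 CPM in KO, 25.8 and 24.4 CPM in WT). The part of NK and CD8 T cells was not tested. Set against WT, the KO EAE libraries had Cd244a (3.68 ± 0.40) and Lair1 (2.55 ± 0.19) at the head of 3 receptors called higher, and Cd27 was called lower (-0.32 ± 0.07, named after its value was seen).

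Among genes that act downstream of the receptors, of 20 kinases, phosphatases and adaptors listed for receptor signalling, 1 rose in KO against WT and none fell, where 9.41% and 3.46% of all genes did: Ptpn11, which encodes the phosphatase SHP-2 recruited by PD-1 and BTLA, with 270.1 and 258 CPM in KO and 196 and 195 CPM in WT (log2 change 0.43 ± 0.08, edgeR adjusted p = 0.0214). Its call ended when any 1 of the 4 libraries was left out (log2 changes of 0.40 to 0.465). In the normalized table Ptpn11 overlapped between the groups, at 2437 and 2257 normalized reads in KO and 1991 and 2413 in WT. Of 14 genes listed for the trafficking and turnover of CTLA-4, 2 rose and 1 fell, against the same 9.41% and 3.46% of all genes. Lrba, whose product protects CTLA-4 from lysosomal degradation, had 182 and 198 CPM in KO and 257 and 258 CPM in WT (-0.44 ± 0.08, adjusted p = 0.0181), a call that ended in each of the 4 fits without a library (adjusted p from 0.0521 to 0.122). Pld1, a phospholipase D, had 10.7 and 11.5 CPM in KO and 1.5 and 1.78 CPM in WT (2.75 ± 0.38, adjusted p = 0.00593), and without WT replicate 1 its adjusted p was 0.0534. In the normalized table Pld1 stood the other way, with 0 and 12.9 normalized reads in KO and 38.2 and 26.9 in WT, and Lrba overlapped between the groups, at a log2 change of 0.10 ± 0.46 (limma adjusted p = 0.943). Ctsb, which encodes the lysosomal protease cathepsin B, had 325 and 363 CPM in KO and 197 and 202 CPM in WT (0.79 ± 0.09, adjusted p = 0.00263). Pld1 and Ctsb were also called higher in KO EAE against WT, at 2.49 ± 0.38 and 0.69 ± 0.09, as was Ptpn11 at 0.47 ± 0.08, and each of these 3 calls ended without WT replicate 1 or WT replicate 2.

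Of 20 transcription factors listed as regulators of the receptor genes, 3 rose and 6 fell in KO against WT, where 9.41% and 3.46% of all genes did. Tbx21, which encodes the Th1 and NK cell factor T-bet, had 83.4 and 63.3 CPM in KO and 14.1 and 14.9 CPM in WT (log2 change 2.34 ± 0.29, edgeR adjusted p = 0.00381). Its relative Eomes rose by 1.34 ± 0.21 (adjusted p = 0.0096) and Id2, an inhibitor of E proteins, by 0.74 ± 0.10 (adjusted p = 0.0053). Nr4a2 and Nr4a3, orphan nuclear receptors induced by antigen receptor signals, fell the furthest of the list. Nr4a3 had 76.2 and 84.6 CPM in KO and 270.3 and 271 CPM in WT (-1.75 ± 0.08, adjusted p = 8.2e-05), and Nr4a2 had 29.1 and 45.6 CPM in KO and 132 and 123 CPM in WT (-1.77 ± 0.22, adjusted p = 0.0036). Ikzf2, which encodes the regulatory T cell factor Helios, fell by 0.78 on the log2 scale (SE 0.12, adjusted p = 0.00965). The calls on Tbx21, Id2, Nr4a2 and Nr4a3 held in all 4 fits without a library, and those on Eomes and Ikzf2 in 1 each. Eomes also stands in the list of NK cell markers, and Ikzf2 in that of regulatory T cell markers.

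Nr4a3 was the regulator called in KO EAE against KO, with 172 and 173 CPM in KO EAE and 76.2 and 84.6 CPM in KO (log2 change 1.10 ± 0.08, edgeR adjusted p = 0.0455). All 4 of these libraries stood below both WT libraries. That call ended without KO replicate 1 or KO replicate 2 and in the fit of these 2 groups alone (highest adjusted p 0.335). Between KO EAE and WT, 4 regulators were called higher and 3 lower, led by Tbx21 at 2.23 ± 0.29 and Eomes at 1.27 ± 0.21. In the normalized table Id2 was the regulator called, with 5997 and 6062 normalized reads in KO and 3529 and 3248 in WT (0.83 ± 0.11, limma adjusted p = 0.0486), and without any 1 library its adjusted p ran from 0.0818 to 0.888. It kept the call in 2 of 10 alternatives. Tbx21 in that table had 989 and 808 normalized reads in KO and 628 and 949 in WT, which overlap.

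**Figure D5:**
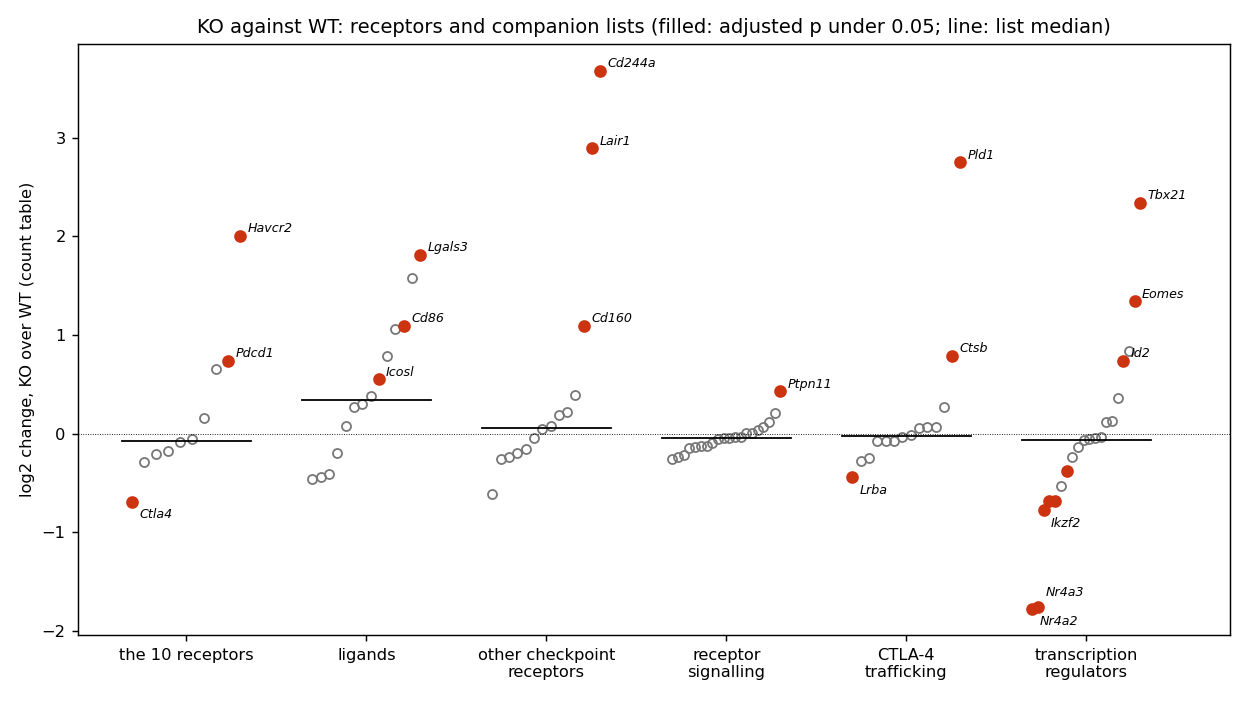
Log2 change in KO over WT in the count table for the 10 receptors and for the 5 lists of ligands, further receptors, signalling genes, CTLA-4 trafficking genes and transcription regulators. Each circle is a tested gene, filled where its edgeR adjusted p was under 0.05, and lines are list medians. The ligand median lies at 0.34 and those of the other lists within 0.07 of 0.

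The genes whose profile was most like that of a called receptor were found by the Euclidean distance of centred log2 CPM over the 6 libraries, among the 10090 genes that averaged 10 CPM or more. The nearest to Ctla4 was Traf6, an adaptor of Toll-like and TNF family receptors, at a distance of 0.086, with 185 and 157 CPM in KO EAE, 135 and 155 CPM in KO, and 229 and 227 CPM in WT. Lmtk2, a membrane-bound kinase, followed at 0.0986. Nearest to Pdcd1 were Apol7e (0.18) and 2810001G20Rik (0.208). Nearest to Havcr2 were Stom (0.197), which encodes the membrane protein stomatin, and Il18rap (0.291), a subunit of the interleukin-18 receptor. Il18rap had 59.3 and 134 CPM in KO EAE, 97.6 and 105 CPM in KO, and 28.3 and 32.8 CPM in WT, so its KO EAE libraries were unequal in the same sense as those of Havcr2. The 6 libraries share their groups, so these distances describe likeness in this design and carry no test.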

How the data were processed

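Sorted regulatory T cells gave NEBNext Ultra II libraries that were read on a NextSeq500, per the labels' protocols. HISAT2, HTSeq, DESeq2 and the mm10 genome are named per the submitters' processing notes, with no version. Neither annotation nor strand setting is given in the sources used here, so reads of overlapping antisense genes cannot be told apart. No exon base of the 10 receptors is shared with another annotated gene in GENCODE M21. The authors deposited read counts per gene for 6 libraries, a table of normalized signal (counts divided by size factors, KO and WT only), and a comparison of KO with WT with a log2 fold change, a test score and p-values, per the file headers. Rows that name no gene (25 of 24449 and 27 of 23420, at most 0.217% and 0.284% of reads) were left out.

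The count test was edgeR 4.0.16 under R 4.3.3 (filterByExpr with minimum count 10 and minimum total 15, TMM, glmQLFit and glmQLFTest) in 1 fit of all 6 libraries with 1 coefficient per group. Normalized values were tested with limma 3.58.1 on log2(value + 1) for genes with a mean of at least 10, so fold changes are on that scale. All normalized values were whole multiples of 1 read (100% within 0.02 reads), and edgeR on these recovered reads called 12 genes. Alternatives included DESeq2 1.42.0. p-values were adjusted over all genes tested by the Benjamini-Hochberg method. The SE of an edgeR log2 change is its size divided by the square root of F. Tests were run on simulated data first. Of 165 genes in the lists, 156 matched the count table by symbol and 5 by synonym. Replicates differed by more than sampling noise (chi-square per degree of freedom 16.5 to 32), so each library counted once.

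The receptors and the gene lists were chosen with earlier results of these data known. Named genes were all receptors and the called genes of each list with the largest change (up to 6 in KO against WT, up to 2 in other comparisons). The 2 nearest genes of each called receptor were named too, and Bcl11b and Foxp3 as label checks. Exon lengths came from GENCODE M21 and may differ from the authors' annotation. Promoter windows were used for 6 receptors. Cd28, Icos and Lag3 had no entry, and Cd226, on chromosome 18, was left out of the search. Leaving a group with 1 library assumes that it varies like the others.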

Additional observations from a re-analysis of the deposited data

How the results depend on the processing

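Over 40 results on the receptors, 384 of 430 alternative values kept their direction and side of the threshold, 14 lost the call, 11 gained one and 21 changed sign. In KO against WT the count of receptors called higher (2) was 0 to 1 and that called lower (1) was 0 to 0 when a library was left out, and a fit of the 2 groups alone called 2 lower. In KO EAE against KO leaving out a library gave 0 to 1 higher. In KO EAE against WT (1 higher, 0 lower), DESeq2 called 3 higher and 1 lower, Cd3 scaling 1 lower, the 2 groups alone 0 higher, and leaving out a library 0 to 2 higher and 0 to 1 lower. Genes called in KO against WT were 1873, against 3121 with the 2 groups alone and 846 to 917 without a library. KO EAE against WT had 1362, against 2213 by DESeq2, 782 with the 2 groups alone and 603 to 3762 without a library. KO EAE against KO had 2, against 167 by DESeq2, 3 with Cd3 scaling or no filter, and 0 to 313 without a library. In the normalized table they were 22, against 9 and 50 with pseudocounts of 0.5 and 10, 1 with no filter, 12 on recovered reads, 1 on those scaled to Cd3, an alternative chosen after seeing the data, and 0 to 71 without a library. With library totals only, 399 genes were called lower in KO, against 504. The causes were not tested.

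Same-numbered libraries deviated together with correlations of 0.192, -0.262 and 0.0583 (counts) and 0.0033 (normalized values). These values show no common pairing, but with 2 libraries per group they cannot exclude it. The replicate block called 1668 genes in KO against WT, with the same 3 receptors, 0 in KO EAE against KO, 1301 in KO EAE against WT, with 2 receptors higher (Pdcd1 and Havcr2), and 90 in the normalized table. Under it the edgeR calls on Icosl in KO against WT (adjusted p = 0.0567), Cd86 in KO EAE against WT (0.051) and Nr4a3 in KO EAE against KO (0.214) ended, and Bcl11b was called in the normalized table (limma adjusted p = 0.02).

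Changes of sign, given as log2 changes, were all in values that no fit called. Icos was 0.0026 in KO against WT with library totals only. For KO EAE against KO, Cd96 was -0.0021 with Cd3 scaling and Havcr2 -0.047 with the replicate block. In the normalized table Cd28 was -0.0077 on Cd3-scaled reads. When a library was left out, the log2 change crossed 0 for the following. For KO against WT, Icos ran from -0.14 to 0.028 and Cd226 from -0.17 to 0.00098. For KO EAE against KO, Havcr2 ran from -0.68 to 0.53, Lag3 from -0.027 to 0.34, Cd226 from -0.16 to 0.024, Cd96 from -0.065 to 0.15, Foxp3 from -0.095 to 0.028 and Bcl11b from -0.41 to 0.12. Set against WT, KO EAE gave Cd28 from -0.17 to 0.063, Btla from -0.21 to 0.052 and Tigit from -0.083 to 0.27. In the normalized table Cd28 ran from -0.10 to 0.23, Btla from -0.13 to 0.32, Havcr2 from -1.97 to 0.36 and Foxp3 from -0.16 to 0.0062.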
